A study of Mus musculus with 4 samples.

Results

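The transcripts described here encode the tubulins that build microtubules, the proteins that bind microtubules, and the motors of the kinesin, dynein and myosin families. They were taken by gene symbol: α, β and γ tubulins, numbered kinesins (Kif), dyneins and dynactin subunits, numbered myosins, the MAP1 family with its light chain 3 genes, Map2, Map4, Map6, tau (Mapt) and the end-binding proteins (Mapre). The neuronal tubulin Tubb3 was left out of the set. This gave 87 probe sets for 64 genes, of 10833 probe sets and 8251 genes that carried 1 gene symbol. Of the 64 genes, 12 were tubulins, 11 microtubule-associated proteins, 18 kinesins, 13 dyneins and dynactin subunits and 10 myosins.

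RNA was measured on oligonucleotide arrays from the dentate gyrus, the hippocampal field of granule cells, of young male C57BL/6J mice. The 4 samples are handled controls with no other treatment, extracted 1, 2, 4 and 6 h after shocked mice of a parallel group had received their last shock. The shocked mice were not analysed here, and the sources used here give neither the number of mice in each sample nor the time of day. The comparison asks how far these genes differ between the hours in unshocked mice.

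Each hour has 1 array, so a difference between hours cannot be told apart from a difference between arrays or between mice. Values are array intensities in the order 1, 2, 4 and 6 h, and a mean ± SD is over the 4 arrays (n = 4), so its spread holds the hours as well as the error. Intensities of different probe sets do not measure relative RNA amounts, so levels are compared here within a probe set. In whole tissue, fewer cells of a type and less RNA per cell cannot be told apart. The median intensity over all probe sets was 185.6, 187, 213 and 184.8. Among markers of granule cells, all 4 with a probe set (Prox1, Dsp, Calb1 and Tdo2) passed the filter on dim genes described next. CA field, interneuron, astrocyte, oligodendrocyte and microglia markers were also present, so the samples hold other cells as well.

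Microtubules are hollow polymers of α and β tubulin, nucleated from γ tubulin, and in neurons they fill axons and dendrites. Kinesins mostly carry cargo towards the growing end of a microtubule, which in axons points away from the cell body, and cytoplasmic dynein with its partner complex dynactin carries it back. Associated proteins such as tau and MAP2 stabilise and space the polymers, while myosins move on actin filaments and serve dendritic spines and cell cortex.

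Testing was limited to genes at or above the 40th percentile of mean log2 intensity, which corresponds to an intensity of 170.4, and the probe set with the highest mean stood for its gene. This kept 45 of the 64 genes: 11 of 12 tubulins, 9 of 11 microtubule-associated proteins, 8 of 18 kinesins, 11 of 13 dyneins and dynactin subunits and 6 of 10 myosins. Just above the limit lay Kif3b, with a mean of 176.4 ± 27.8, and just below it Myo1d, with 163 ± 34.3. A straight line of log2 intensity against the hour was fitted in limma to all 4951 genes that passed.

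No trend with the hour was called. With limma, 0 of 45 members and 0 of 4951 genes (0.0%) passed a Benjamini-Hochberg adjusted p of 0.05, and no member was below 0.99993. At an unadjusted p under 0.05 there was 1 member, Map1lc3a, beside 2.02% of all genes (100 of 4951). Slopes were positive in 21 members and negative in 24, with a median of −0.01 log2 per h, where 49.9% of all genes had a positive slope and the median was 0.00. Values were higher at each step in 3 members (Tubb6, Kif1a and Kif22; 2.65% of all genes) and lower at each step in 1 (Map1lc3a; 2.4% of all genes).

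By their median, the members ranged over the 4 hours about as widely as all genes past the filter. Over all genes tested, 15.0% (741 of 4951) had a highest value over 2-fold the lowest, and 4 of the 45 members did: the dynein light chain Dynll2, the β tubulin Tubb4b, the stabilising protein Map6 and the kinesin-1 heavy chain Kif5b. The median ratio of highest to lowest hour was 1.47 for the members and 1.47 for all genes. By role the median was 1.47 for tubulins, 1.47 for microtubule-associated proteins, 1.45 for kinesins, 1.35 for dyneins and dynactin and 1.62 for myosins. Within the set, the smallest ratio was that of the dynactin subunit Dctn5, at 1.16-fold. A value over 2-fold above every other hour occurred in 1 member, Dynll2 (0.747% of all genes), and one over 2-fold below every other hour in 1, Tubb4b (2.91% of all genes).

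The hours of highest and lowest values were spread over all 4 arrays. The highest value fell at 1 h in 13 members (23.1% of all genes), at 2 h in 8 (23.2%), at 4 h in 13 (31.4%) and at 6 h in 11 (22.3%). The lowest fell at 1 h in 10 members (24.5%), at 2 h in 10 (23.2%), at 4 h in 11 (29.2%) and at 6 h in 14 (23.1%). Members above the mean of their other hours numbered 21 of 45 at 1 h (50.7% of all genes), 25 at 2 h (51.3%), 27 at 4 h (52.1%) and 25 at 6 h (52.2%). Under array median scaling the count at 4 h was 14 of 45, beside 32.7% of all genes, so the direction at that hour over the whole set depends on the scaling. Tubb2a, Tubb4a, Mapre2, Dctn1, Dctn5 and Myo5b, 6 members, were highest at 1 h and lowest at 2 h (7.45% of all genes).

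**Figure D1:**
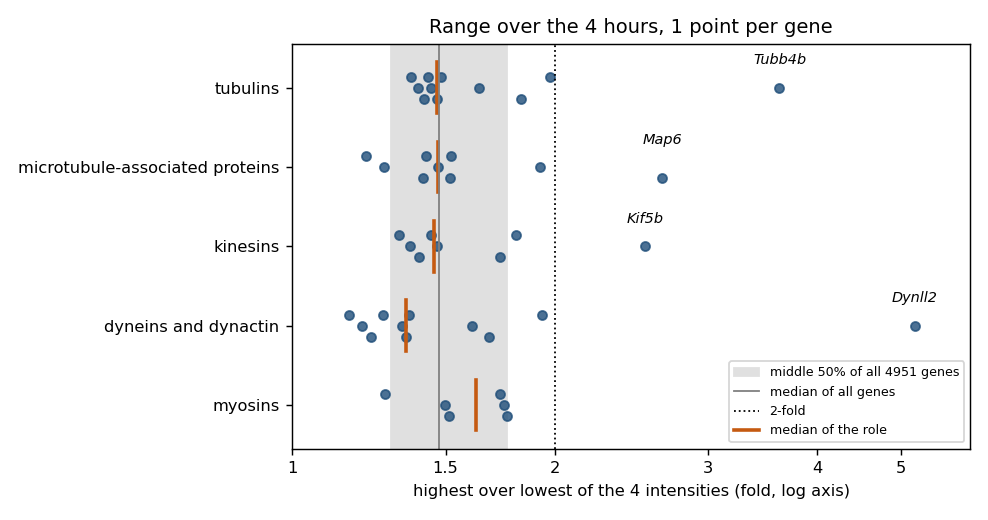
Ratio of the highest to the lowest of the 4 intensities (horizontal log axis, fold) for each of the 45 genes past the filter, grouped by role. Bars mark the median of each role, the grey band the middle 50% of all 4951 genes (1.30 to 1.76), and the dotted line 2-fold, beyond which lie Tubb4b, Map6, Kif5b and Dynll2.

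**Figure D2:**
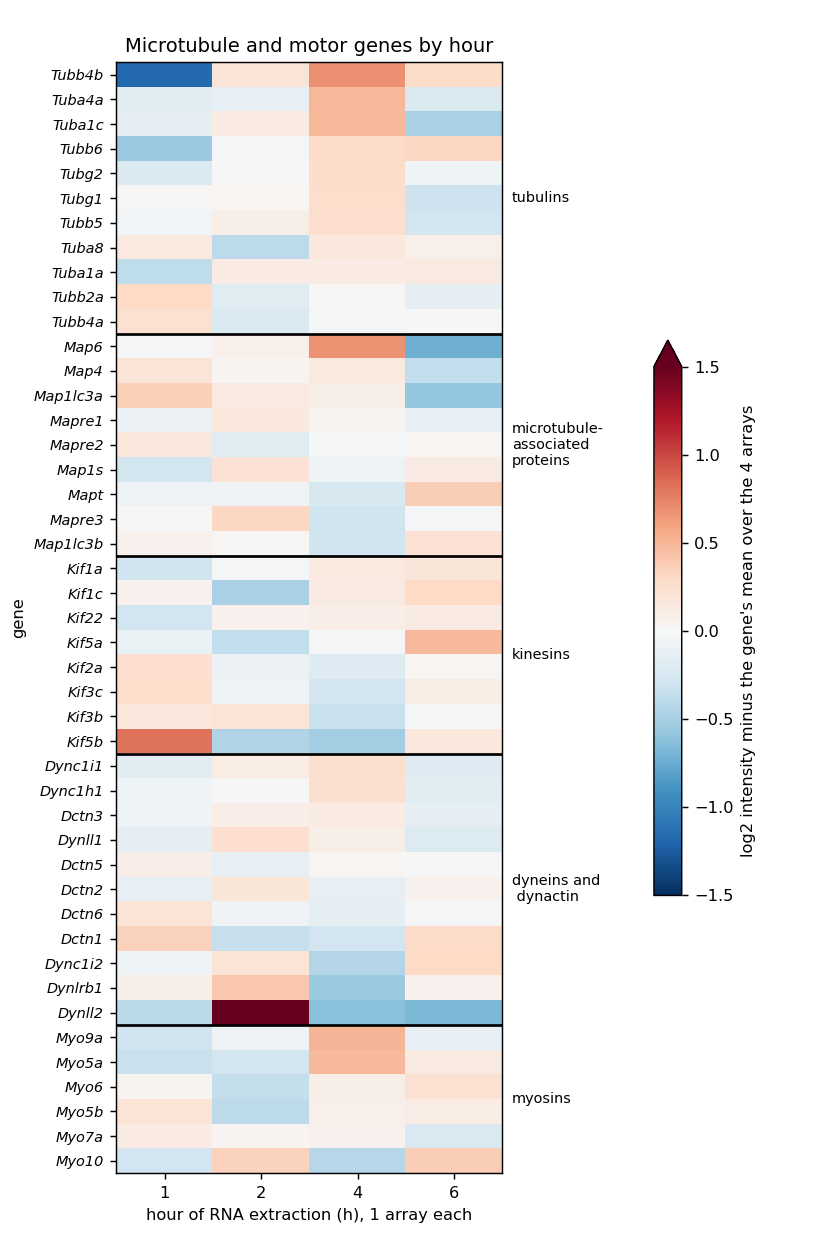
Log2 intensity minus the gene's mean over the 4 arrays (colour) for 45 genes (rows, by role, ordered within a role by their 4 h value) at 1, 2, 4 and 6 h (columns, 1 array each). The 4 h column is above the mean in most tubulin rows and below it in several kinesin rows, and the Dynll2 value at 2 h exceeds the colour scale.

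Among the tubulins, the array at 4 h gave the highest value in 7 of 11 genes, beside 31.4% of all genes, and the lowest value in none, beside 29.2% of all genes. At 4 h, 10 of 11 tubulins were above the mean of their other hours, where 52.1% of all genes were, and the median difference was 0.35 log2 for tubulins and 0.02 for all genes. Their probe sets are not separate measurements of the family, since tubulins are similar in sequence and 6 of the 11 probe sets used have names of the kind given to probes shared by related transcripts or chosen with relaxed rules. On the 5 tubulins with a plain probe set name, 4 were highest at 4 h, beside 31.4% of all genes, and the median difference was 0.35. Of these 4, Tuba8 was only 1.009-fold above its second highest hour. Scaling the arrays to a common median moved the median of all genes at 4 h to −0.17. Under that scaling 8 of 11 tubulins were above their other hours, with a median of 0.15, beside 32.7% of all genes, and 5 of 11 were highest at 4 h, beside 16% of all genes. Quantile normalisation put 11 of 11 above, beside 50.8% of all genes, with a median of 0.32. Tubb4b passed the filter through its 4 h value. With the filter set on the other 3 hours instead, an alternative chosen after seeing the data, 6 of 10 tubulins were highest at 4 h, beside 29.8% of all genes, and 9 of 10 were above their other hours, beside 50.3%, with a median of 0.34.

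The widest tubulin was Tubb4b, a β tubulin found in many tissues, at 86.3, 222, 313 and 235. Its 1 h value stood apart as the lowest, 2.94-fold below the mean of the other hours on the log2 scale, and the ratio of highest to lowest hour was 3.62, or 1.41 without the 1 h sample. A line through the hours sloped at 0.25 ± 0.14 log2 per h (SE, n = 4; limma adjusted p = 0.99993). Its mean, 214 ± 94.1, lies close to the limit for dim genes. Another β tubulin, Tubb6, read 282, 405, 504 and 515 and was also lowest at 1 h, with a slope of 0.16 ± 0.08. The γ tubulin Tubg2, at 519.6, 609, 735 and 577, was lowest at 1 h as well.

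Several tubulins shared a high value at 4 h followed by the lowest value at 6 h. The α tubulin Tuba1c read 20828, 24958, 32299 and 16355, a mean of 23610 ± 6775. Tuba4a, an α tubulin found in brain and muscle, read 2327, 2383, 3678 and 2242, so that 4 h was 1.59-fold the mean of the others, which lay within 1.06-fold. Tubb5, the main β tubulin of dividing and developing cells, read 9063, 9918, 11096 and 7679.8. A further probe set for Tubb5 ran the same course, at 4441, 5698, 6344 and 3728. With array median scaling, both Tubb5 probe sets were highest at 2 h instead, so the hour of their peak depends on the scaling. Tubg1, the γ tubulin that nucleates microtubules, read 561, 563, 663 and 447. In all, 4 of 11 tubulins and 8 of 45 members were highest at 4 h and lowest at 6 h, beside 11.6% of all genes. The marker list for CA field pyramidal and mossy cells, with 3 markers past the filter, summed to 3698, 3888, 4189.8 and 2709. The sum was also highest at 4 h and lowest at 6 h, but the markers differed. Bok read 1585, 1862.5, 2081 and 1149, Calb2 1060, 1173, 1179 and 793, and Wfs1 1053, 852, 930 and 767, highest at 1 h. The immature neuron list was highest at 4 h and lowest at 6 h too (12524.5, 12231, 13229 and 11345). Most of that sum was Tubb3, itself a tubulin, with 8770 at 4 h. None of its other markers was highest at 4 h: Dcx, Neurod1 and Stmn1 were highest at 2 h and Sox11 at 6 h. The part of either cell type in the tubulin values was not tested.

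The tubulins outside this course were Tubb2a, Tubb4a, Tuba8 and Tuba1a, besides Tubb4b, Tubb6 and Tubg2 named above. Tubb2a, a neuronal β tubulin, was highest at 1 h (18264, 13078, 14984 and 13542), as was Tubb4a, a β tubulin of neurons and myelin-forming cells (5339.6, 3896, 4482.5 and 4552). A further Tubb2a probe set was highest at 4 h instead, with 244.5, 221, 322.5 and 194.3. Tuba1a, the α tubulin most linked to developing neurons, was low at 1 h and level at the other hours (25012, 35428, 35422.5 and 35852; mean 32929 ± 5282). Its other probe set did not share the low 1 h value and read 13649, 15841, 13971 and 12020. Tuba8 read 1013, 697, 1022 and 961. The tubulin pseudogene Tubb2a-ps2 was the 1 tubulin under the filter, with values of 31.8, 41.2, 190.0 and 46.1.

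The stretches before the start of 3 β tubulin genes are shown for context. On the probe sets used and the deposited intensities, Tubb4b and Tubb5 were highest at 4 h and Tubb2a at 1 h. With array median scaling Tubb5 was highest at 2 h. The further Tubb2a probe set was highest at 4 h and lowest at 6 h, as Tubb5 was on the deposited intensities. The stretches are the 250 bases before the annotated start in RefSeq (GRCm38.p6), 5′ to 3′, and were chosen after the values were seen. Capitals mark matches on either strand to any of the GC box GGGCGG, the CCAAT box, the TATAA core of promoters, the cAMP response element TGACGTCA and the E-box CACGTG.
Tubb4b, chr2:25224703-25224952, minus strand: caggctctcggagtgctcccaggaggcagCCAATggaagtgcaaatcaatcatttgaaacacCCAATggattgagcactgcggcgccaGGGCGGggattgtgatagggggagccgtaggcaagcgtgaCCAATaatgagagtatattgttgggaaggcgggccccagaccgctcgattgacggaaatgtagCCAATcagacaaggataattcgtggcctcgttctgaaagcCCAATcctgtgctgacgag
Tubb5, chr17:35838302-35838551, minus strand: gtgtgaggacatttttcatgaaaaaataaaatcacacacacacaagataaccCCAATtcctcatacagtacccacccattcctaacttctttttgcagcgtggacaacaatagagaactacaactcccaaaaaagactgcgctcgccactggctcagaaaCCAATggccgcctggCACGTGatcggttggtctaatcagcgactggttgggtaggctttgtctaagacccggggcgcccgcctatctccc
Tubb2a, chr13:34078009-34078258, minus strand: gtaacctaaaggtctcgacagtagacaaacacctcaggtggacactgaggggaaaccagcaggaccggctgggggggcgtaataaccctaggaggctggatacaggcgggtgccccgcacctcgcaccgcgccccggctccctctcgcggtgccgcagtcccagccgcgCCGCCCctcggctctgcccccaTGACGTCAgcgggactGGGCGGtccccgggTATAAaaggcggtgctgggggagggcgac
Tubb4b holds 5 CCAAT matches and 1 GGGCGG, Tubb5 2 CCAAT and 1 CACGTG, and Tubb2a 2 GGGCGG with 1 TGACGTCA and 1 TATAA. The marked motifs do not overlap one another in these stretches. Promoter stretches were found for 49 of the 64 genes, in 62 windows. GGGCGG occurred in 58.1% of these windows and in 32.7% of all 32851 windows of the same length, CCAAT in 35.5% and 33.8%, and TATAA in 22.6% and 22.8%. For TGACGTCA the shares were 4.84% and 1.55%, and for CACGTG 6.45% and 6.02%. A match is a stretch of letters, and binding was not measured.

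Of the microtubule-associated proteins, Map6 had the widest range. Map6 (STOP), which makes neuronal microtubules resistant to cold and drugs, read 627, 675.5, 1023 and 385, a mean of 678 ± 263. It was highest at 4 h and lowest at 6 h, 2.66-fold apart. Without the 4 h sample that ratio was 1.75 and without the 6 h sample 1.63. Its slope of −0.10 ± 0.10 log2 per h (SE, n = 4; limma adjusted p = 0.99993) rested on the 6 h array, since without it the slope was 0.245.

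Map1lc3a and Map1lc3b encode light chain 3, first described as a MAP1 subunit and best known for its part in autophagosome membranes. Map1lc3a read 1261, 1079.7, 1046 and 656. Its slope of −0.17 ± 0.06 log2 per h (SE, n = 4; limma adjusted p = 0.99993) was the 1 member slope with an unadjusted p under 0.05. Its range of 1.92-fold came down to 1.21-fold without the 6 h sample. Map1lc3b ran otherwise, with its lowest value at 4 h and its highest at 6 h (4913, 4761, 3832 and 5466). A further Map1lc3b probe set was lowest at 4 h too, at 1109, 822, 779 and 1024.5.

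Tau, the axonal protein encoded by Mapt, was covered by 3 probe sets, and 2 of them were highest at 6 h. The probe set used read 6154, 6254.5, 5509.5 and 8354.5, a further one 4142, 3609, 3658 and 4439, and the last 3805, 2763, 2756 and 3600.2. In each of them the values at 2 and 4 h lay below that at 6 h. The end-binding protein genes, whose products track growing microtubule ends, differed in range. Mapre1 read 1436, 1710.1, 1576 and 1405 (mean 1532 ± 140.3), with 1.22-fold between its extremes, and 454, 792, 551 and 468 on a further probe set, with 1.74-fold, both highest at 2 h. Mapre2 read 946, 742, 821 and 859, with 1.28-fold. Mapre3 read 888, 1099, 722 and 871, with 1.52-fold, and 489.6, 382, 546 and 331 on a further probe set, with 1.65-fold and the highest value at 4 h, where the other was lowest. Map4, the main such protein outside neurons, read 982, 884, 949.5 and 667, lowest at 6 h. Its further probe set read 241.5, 158.1, 241.8 and 311.5, highest at that hour. Map1s read 1298, 1833, 1496 and 1712. Map2, the dendritic marker protein, and Map1b, a protein of growing axons, did not pass the filter here. The Map2 probe set read 33.0, 22.2, 80.6 and 241.6 and the Map1b probe set 56.5, 12.0, 9.2 and 78.7, with 2 of the 4 values of each under the floor of 38.3.

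Kinesins had the smallest share of members past the filter, and 4 of those 8 were lowest at 4 h, beside 29.2% of all genes (46.9% with array median scaling, where it was again 4 of 8). They were Kif2a, Kif3b, Kif3c and Kif5b, and none of the 8 was highest at that hour. At 6 h, 7 of 8 kinesins were above the mean of their other hours, where 52.2% of all genes were. With either array median scaling or quantile normalisation it was 8 of 8, beside 62.3% and 51.4% of all genes.

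Kif5b, the heavy chain of kinesin-1 found in most cells, read 1544, 640.2, 608 and 975, a mean of 942 ± 434. The 1 h array gave 2.13-fold the mean of the other hours, and without it the ratio of highest to lowest was 1.60, against 2.54 with all 4 arrays. Kif5a, its neuronal relative, was highest at 6 h instead, at 215, 178, 227 and 321 (slope 0.14 ± 0.11, SE, n = 4; limma adjusted p = 0.99993). A further Kif5a probe set had 2 values under the floor and read 39.2, 18.6, 156.1 and 6.9. The remaining neuronal heavy chain, Kif5c, was under the filter, with 107.0, 65.6, 19.2 and 27.7.

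The kinesin-2 motor pairs Kif3a with Kif3b or Kif3c and serves cilia and axons. Kif3c read 1036, 824, 707 and 933 and Kif3b 194.1, 200.7, 139.0 and 172, while Kif3a was under the filter with 135.8, 151.5, 170.2 and 98.4. Kif2a, which takes microtubule ends apart and limits axon branching, read 696, 549.8, 510.5 and 598.5. The synaptic vesicle carrier Kif1a read 204, 246, 279.7 and 285, and Kif1c 393, 266, 407 and 461 (slope 0.09 ± 0.09, SE, n = 4). Kif22, a motor that binds chromosomes, read 548, 698, 713 and 726.

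Kinesins known from cell division were otherwise dim. Kif11, which separates spindle poles, lay under the floor on all 4 arrays (16.9, 15.6, 11.8 and 14.1), and Kif20a read 8.9, 12.4, 73.2 and 11 on one probe set, above the floor at 4 h, and 41.5, 39.1, 22.9 and 60.2 on the other, below the floor at 4 h. Kif23 read 82.7, 106.0, 124.5 and 78.5, Kif2c 92.6, 139.1, 210.8 and 114.7 and Kif4 139.8, 54.3, 110.4 and 74.6. Of the 5 dividing cell markers with a probe set, Mki67 and Ccna2 passed the filter, and Top2a read 14.6, 14, 59.3 and 23.3. The summed intensity of these 5 markers ran between 728 and 997 over the hours, most of it Ccna2 and Mki67. The other kinesins named here did not pass the filter, so no order of the hours is drawn from them.

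The dynein light chain genes past the filter, 3 genes of the LC8 and roadblock families, were highest at 2 h. Probe sets shared by several Dynlt1 light chain genes, outside the set, differed and are given below. Dynll2 and Dynll1 encode the LC8 light chains, small subunits that also bind many partners outside the motor, and Dynlrb1 a roadblock light chain. These 3 genes had their highest value at 2 h, the highest hour for 23.2% of all genes. All 5 of their probe sets did so, but probe sets of 1 gene are not separate genes. Over the whole role, 4 of 11 dynein and dynactin genes were highest at 2 h. With plain probe set names it was 1 of 8, beside 23.1% of all genes. The size of the 2 h peak differed widely between the light chains. Dynll2 read 1424, 6106, 1223 and 1179, so that 2 h was 4.805-fold the mean of the others, and without the 2 h sample its range was 1.21-fold. The further Dynll2 probe set read 1179, 1278, 999.0 and 957, a range of 1.33-fold.

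With the mean of both probe sets the Dynll2 range was 2.63-fold, against 5.18-fold with the one used. The fitted slope was −0.24 ± 0.14 log2 per h (SE, n = 4; limma adjusted p = 0.99993). Without the 1 h sample, with 3 arrays and 1 residual degree of freedom, Dynll2 was the 1 member called, at a slope of −0.59 and an adjusted p of 1.81e-08. Dynll1 read 13763, 17893, 15994 and 13135, a mean of 15196 ± 2176. Dynlrb1 read 1948, 2418, 1248.5 and 1918, and its further probe set 762.0, 856.5, 591 and 649.9, both highest at 2 h and lowest at 4 h.

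**Figure D3:**
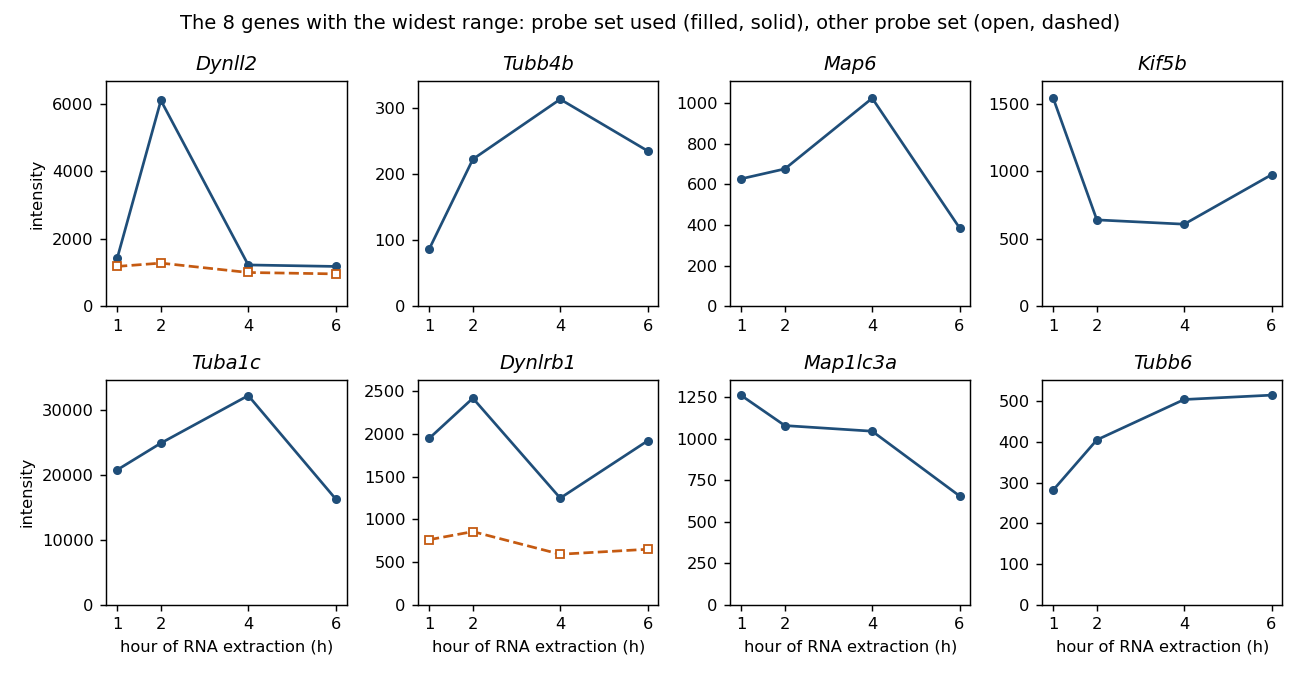
Intensity (vertical axis, linear from 0) at 1, 2, 4 and 6 h for the 8 genes with the widest range, 1 array at each hour, with the probe set used as filled circles and any other as open squares. The Dynll2 probe set used reaches 6106 at 2 h while the other stays between 957 and 1278, and both Dynlrb1 probe sets are highest at 2 h and lowest at 4 h.

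The large dynein subunits followed other courses on the deposited intensities. The motor heavy chain Dync1h1 read 3356, 3521, 4160.5 and 3118 and the neuronal intermediate chain Dync1i1 3307, 3983, 4374 and 3237. Both were highest at 4 h and lowest at 6 h (11.6% of all genes), with 1.33-fold and 1.35-fold between the extremes. With array median scaling, Dync1i1 was highest at 2 h instead. Under that scaling 1 of 11 dynein and dynactin genes was highest at 4 h, beside 16% of all genes. Without it the count was 3 of 11, beside 31.4%. Those highest at 2 h numbered 6 of 11 with that scaling and 4 of 11 without it (27.6% and 23.2% of all genes). The intermediate chain Dync1i2, found in most cells, was lowest at 4 h and highest at 6 h, at 521, 624, 399.7 and 671. The Tctex light chains Dynlt1b (24.2, 29.7, 47.1 and 3.6) and Dynlt3 (27.2, 53.9, 70.4 and 85.8) were under the filter. No order of the hours is drawn from them. Outside the set, a probe set shared by Dynlt1a and Dynlt1c read 10796.5, 8472, 12442 and 18571, lowest at 2 h. One shared by Dynlt1a, Dynlt1b, Dynlt1c and Dynlt1f read 113.4, 127.5, 123.6 and 117.2, highest at 2 h.

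The dynactin subunits Dctn5, Dctn3 and Dctn6 were among the steadiest members on the deposited intensities. Dctn5 read 1855, 1596, 1768.5 and 1742 (mean 1740.4 ± 108), Dctn3 2599, 2909, 2955 and 2459 and Dctn6 1244, 1043, 978 and 1069.6, with 1.16-fold, 1.20-fold and 1.27-fold between their extremes. Dctn1, the p150 subunit that links dynactin to dynein and to microtubules, varied more, at 3893, 2421, 2519 and 3739. Its values at 1 and 6 h lay within 1.04-fold of each other, and both were above those at 2 and 4 h. Dctn2, the dynamitin subunit, read 861, 1062, 864 and 982.5, or 1.23-fold, but 474, 443, 697 and 304 on its further probe set, or 2.29-fold with a peak at 4 h. With array median scaling the ranges of Dctn6 and Dctn2 rose to 1.46-fold and 1.40-fold. Those of Dctn5 and Dctn3 were 1.20-fold and 1.17-fold.

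The 6 myosins past the filter had a median range of 1.62-fold, beside 1.47-fold for all genes. None spanned 2-fold on the probe sets used, and 6 genes are too few to set this apart from the 15.0% of all genes. Myo5a, which brings vesicles and endoplasmic reticulum into dendritic spines, read 155, 161, 273 and 214 (slope 0.12 ± 0.12 log2 per h, SE, n = 4; limma adjusted p = 0.99993). Its relative Myo5b, a carrier of recycling endosomes, read 2132, 1407, 1949 and 1999 (mean 1872 ± 319). Myo9a was highest at 4 h like Myo5a, with 225, 262, 393 and 254. Myo10, the motor of filopodial tips, read 181, 281, 165 and 285.5, high at 2 and 6 h. Myo7a, known from the hair cells of the inner ear, was the steadiest, at 533, 503, 514 and 418.

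Myo6, the myosin that moves towards the minus end of actin and takes part in endocytosis, had 3 probe sets with different courses. They read 643, 489, 662.5 and 732, then 618, 573.5, 717 and 541, and 226, 349.5, 389.8 and 183, the last of which spanned 2.13-fold. The fitted slope was 0.07 ± 0.07 log2 per h on the probe set used and −0.01 on the mean of all of them. Under the filter were Myo1c, Myo1d, Myo1e and Myo1f, with means of 68.4, 163, 18.6 and 155.1.

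Agreement between probe sets of 1 gene sets how far a course over the hours can be read. For 12 members, 2 or more probe sets passed the filter. The brightest pair shared its highest hour in 5 of the 12 genes (41.7%) and its lowest in 4 (33.3%), beside 32.4% and 32.7% of the 689 such genes on the whole table. Both hours were shared by 3 genes, Dynll2, Dynlrb1 and Tubb5 (25%, beside 14.5% of the 689). The courses of Dctn2, Map4, Mapre3, Myo6, Tuba1a and Tubb2a shared neither.

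**Figure D4:**
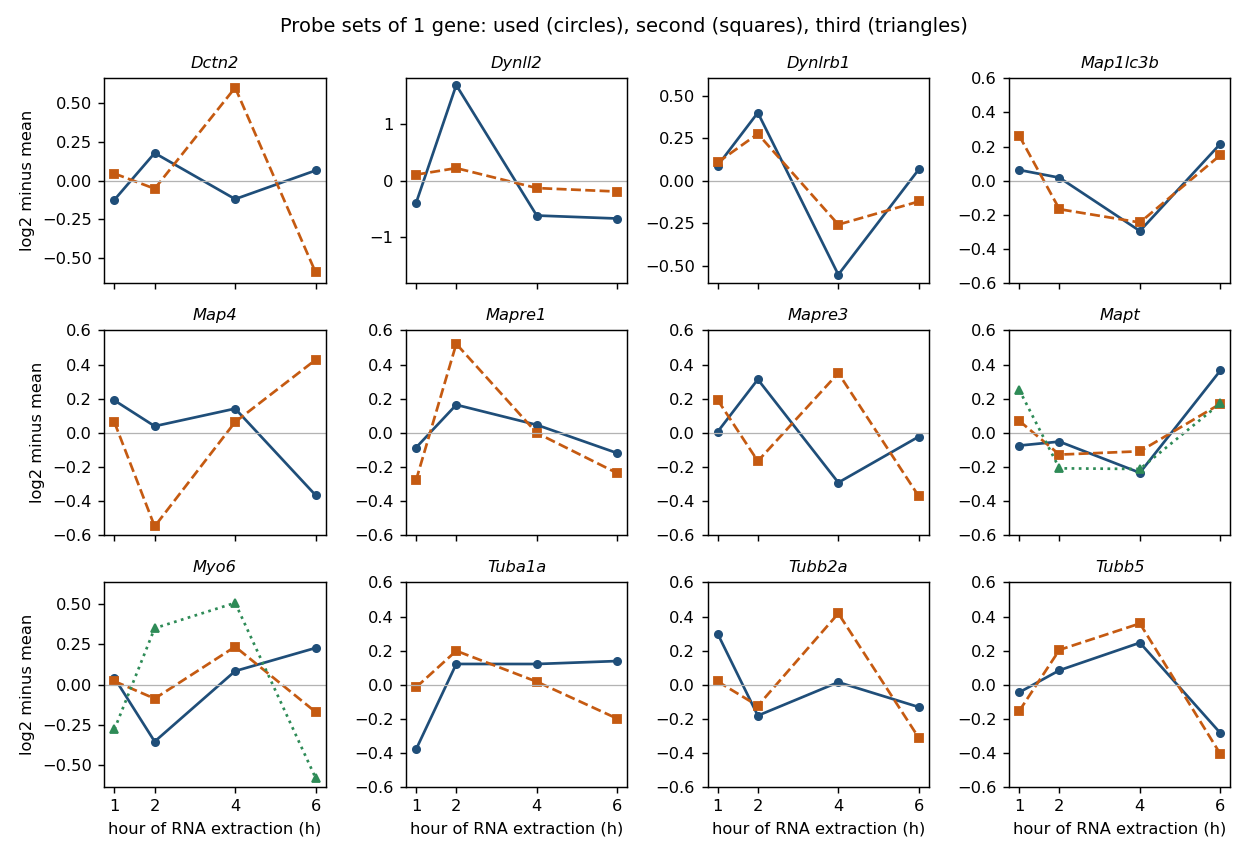
Log2 intensity minus the probe set's own mean (vertical axis, own scale in each panel) at 1, 2, 4 and 6 h 1 array at each hour, for the 12 genes of which several probe sets passed the filter. Lines run together for Tubb5 and Dynlrb1 and cross for Dctn2, Map4 and Mapre3.

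**Figure D5:**
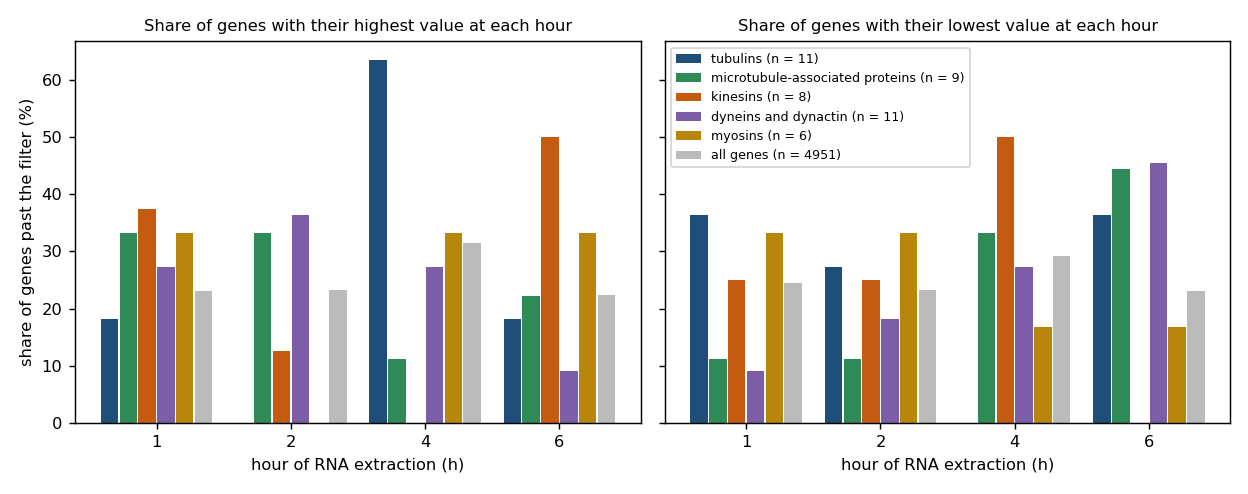
Share of genes past the filter (%) whose highest value (left) or lowest value (right) fell on each hour, for the 5 roles and for all 4951 genes. Tubulins stand at 63.6% for the highest value at 4 h, where all genes stand at 31.4%, and kinesins at 50% for the lowest value at 4 h, where all genes stand at 29.2%.

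Markers of other cells also differed between the arrays. The choroid plexus list had summed intensities of 2123, 4822, 5692 and 2988, with 2 of its 4 measured markers past the filter. Of these Ttr read 81.3, 234, 2408 and 191, highest at 4 h, and Igf2 1849, 4402, 2955 and 2521, highest at 2 h. The endothelial and mural cell list summed to 1692, 1694, 1569 and 955, lowest at 6 h, and the striated muscle list to 883, 1280.0, 1038 and 954. The immature neuron list, which holds Tubb3, summed to 12524.5, 12231, 13229 and 11345, and the oligodendrocyte list to 9649, 9777, 9934 and 11131. Ttr, but not Igf2, was highest at the hour of the high tubulin values, and the part of choroid plexus in them was not tested. Tubb3 itself read 8076, 7034.5, 8770 and 7344, highest at 4 h, and 1890.5, 2074, 1762 and 2389 on its other probe set, lowest at that hour.

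Microtubule regulators outside these families are given for comparison. Of 37 such genes, 24 had a probe set and 21 passed the filter, and limma called 0 of 21 for a trend. Of these, 6 had a positive slope, the median slope was −0.03 log2 per h and the median range 1.28-fold. The tubulin-folding cofactor Tbce was the 1 gene over 2-fold, at 528, 165, 374 and 444, a range of 3.19-fold. Hdac6, which removes acetyl groups from tubulin, read 999, 1105, 1856 and 1222, highest at 4 h (31.4% of all genes). The median difference of the 21 regulators at 4 h was 0.04 log2, beside 0.02 for all genes. The kinesin-2 partner Kifap3 read 3709.6, 3246, 2897 and 2981.5, lowest at 4 h (29.2% of all genes). Kif3b and Kif3c were lowest at that hour too. Kif3a (135.8, 151.5, 170.2 and 98.4) was under the filter, so no order of the hours is drawn from it. Lis1 (Pafah1b1), a dynein regulator, read 3509, 4252, 2639 and 3407, highest at 2 h (23.2% of all genes). Of the other regulators, Ndel1 was highest at 4 h and Nde1 at 6 h. The doublecortin gene Dcx of migrating neurons read 340, 528, 419 and 378.5.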

How the data were processed

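For each of 12488 probe sets, the authors deposited an array intensity, linear in scale, in 4 samples of handled control mice. The sources used here do not give the scanner, software or scaling behind them. With 2% of values trimmed at either end, each array averaged 500.3, so a common scaling was inferred from the deposited intensities, and none was added. Array control probe sets (66) and probe sets with no gene symbol (1193) or several (396) were left out. Gene symbols came from a platform annotation, and identifiers were matched to RefSeq (GRCm38.p6).

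Intensities under the 20th percentile (38.3) were set to it before log2. The trend came from limma 3.58.1 under R 4.3.3 (lmFit and eBayes, the prior variance depending on intensity; residual degrees of freedom 2, prior 10.4 at the median), a procedure tested on simulated data. Its p-values measure scatter between arrays around a line, with 1 array an hour and no separate replicates. The number of arrays limits the precision.

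The members and lists were chosen with earlier results of these data known. Named genes are those over 2-fold, the widest, narrowest and steepest of each role, those with several probe sets, and a list of familiar members; other members named were chosen after their values were seen. Alternatives were other scalings, floors, filters and probe set rules, an eBayes fit without a trend, and leaving out each array. The alternative of plain probe set names was chosen after seeing the data, as were the counts by hour under each scaling and with the filter set on the other hours.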

Additional observations from a re-analysis of the deposited data

Results flagged for a closer look

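Of 59 member probe sets past the filter, 5 had 1 array set apart from the other 3. The gap passed Dixon's 95% limit as a share of the log2 range, which chance passes in about 1 in 20 groups of normal values. The share over all probe sets past the filter was not computed, so the count is not read as a trait of the members. Tuba1a was low at 1 h, with 25011.9 (gap 0.967 of the range), and Kif22 was low at the same hour, with 547.7 (0.861). Tuba8 was low at 2 h, with 697.1 (0.838). Tuba4a was high at 4 h, with 3678.2 (0.877). Dynll2 was high at 2 h, with 6105.7 (0.885), which its other probe set shared in direction at a range of 1.33-fold.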

How the results depend on the processing

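With all 4 arrays, limma called 0 genes and 0 members for a trend under each alternative run, and the median slope of the members stayed within −0.02 and 0.01 log2 per h. Members over 2-fold numbered 4 as reported, and 3 to 5 under the other scalings, floors, the added constant, the stricter filter, the mean of probe sets and plain probe set names. They numbered 14 of 64 with no filter (32.1% of all genes) and 7 of 64 probe sets when each was its own feature (21.6%). Leaving out 1 array gave 0 to 13 called genes, 0 to 1 called members (Dynll2, without 1 h), 2 to 3 members over 2-fold and a median slope from −0.011 to 0.03. The 13 genes were called without the 1 h array and 9 without the 6 h array, from lines through 3 arrays with 1 residual degree of freedom. Of the 10 slopes followed, Myo6 turned to −0.005 with the mean of its probe sets and Map6 to 0.245 without the 6 h array, and the cause was not tested. Slope signs changed in 13 of 44 members without the 1 h array and 16 of 44 without the 6 h array, and in 0 to 4 members under the other alternatives. With plain probe set names the range of Dctn2 was 2.29-fold, against 1.23-fold. Leaving out the 4 h array brought Tuba4a to 1.06-fold, Dynlrb1 to 1.26-fold and Myo9a to 1.16-fold. No paired analysis was possible because the 4 samples form 1 group with 1 array at each hour.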

Other observations

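Probe sets that carry several gene symbols, and so stood outside the set, include members of the same families. One shared by Tuba1a, Tuba1b, Tuba1c and Gm5620 read 25290 at 1 h, 31202 at 2 h, 30685 at 4 h and 20700.4 at 6 h, lowest at 6 h like Tuba1c. One shared by Tuba3a and Tuba3b, α tubulins known from testis, read 533.5, 489, 785.0 and 476, highest at 4 h and lowest at 6 h like Tuba4a, while a further probe set for both lay between 17.1 and 76.6. A probe set shared by Dynlt1a and Dynlt1c, copies of a dynein light chain gene, read 10796.5, 8472, 12442 and 18571. It was lowest at 2 h, where the LC8 and roadblock light chains were highest, and highest at 6 h. One shared by Dynlt1a, Dynlt1b, Dynlt1c and Dynlt1f read 113.4, 127.5, 123.6 and 117.2, highest at 2 h.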
